A study of Mus musculus with 4 samples.

Results

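White matter tract spots were the spots of mouse brain sections in which 5 genes of mature, myelinating oligodendrocytes stood highest together. The genes were Mal, Mag, Mobp, Opalin and Mog. Each was taken as the natural log of 1 plus its counts per 10000 counts of the spot and turned into a z-score over all spots with at least 500 counts. A spot was a member where the mean of the 5 z-scores, here called the marker score, was at least 1.2. This rule took 1456 of 12601 spots. The measured levels chose the members, so every value that sets members beside other spots describes the choice, has no test and supports nothing beyond it.

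The sections were coronal, came from brains trimmed to show the striatum, and were formalin-fixed and paraffin-embedded. They were taken from 4 mice, 2 wild type and 2 heterozygous for Celsr3, with no treatment. The age and sex of the mice and the kind of Celsr3 allele are not given in the sources used here. Probes for 19465 genes were counted on a grid of barcoded spots (10X Genomics Visium CytAssist, version 2 chemistry), each of which covers several cells or parts of them. The spots form 4 sets by the ending of their barcode, but nothing in the labels says which ending belongs to which mouse. The genotypes were therefore not compared here, and values are given set by set with no replicate error. All intervals are 95% intervals. They cover counting error for levels and, for shares, the draw of spots as if these were independent. No interval covers variation between mice.

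White matter is made up mostly of axons wrapped in myelin, with few neuronal cell bodies and synapses. Oligodendrocytes make myelin by wrapping axons in membrane that is rich in cholesterol and galactolipids and is held together by a small number of abundant proteins such as Mbp. Astrocytes of white matter, called fibrous, are known for high levels of the filament protein Gfap. In mice, Celsr3 is known for its part in forming major axon tracts of the forebrain, which is why myelin-rich spots are of interest in Celsr3 heterozygotes.

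The share of members differed between the sets (exact Clopper-Pearson intervals). Set 1 had 625 members among 3055 spots, or 20.5% (19.0 to 21.9). Set 2 had 173 of 2808, or 6.16% (5.30 to 7.11). Set 3 had 274 of 3444, or 7.96% (7.07 to 8.91), and set 4 had 384 of 3294, or 11.7% (10.6 to 12.8). Set 1 had the highest share under this rule. The intervals treat spots as independent draws, which neighbouring spots of a section are not. Whether they overlap therefore does not measure a difference between sections or mice. With z-scores taken within each set the shares were 13.7%, 9.94%, 10.5% and 12.8% in sets 1 to 4, and set 1 lay next to set 4. The sections were trimmed by hand, and the part of the sectioned level in these shares was not tested.

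**Figure D1:**
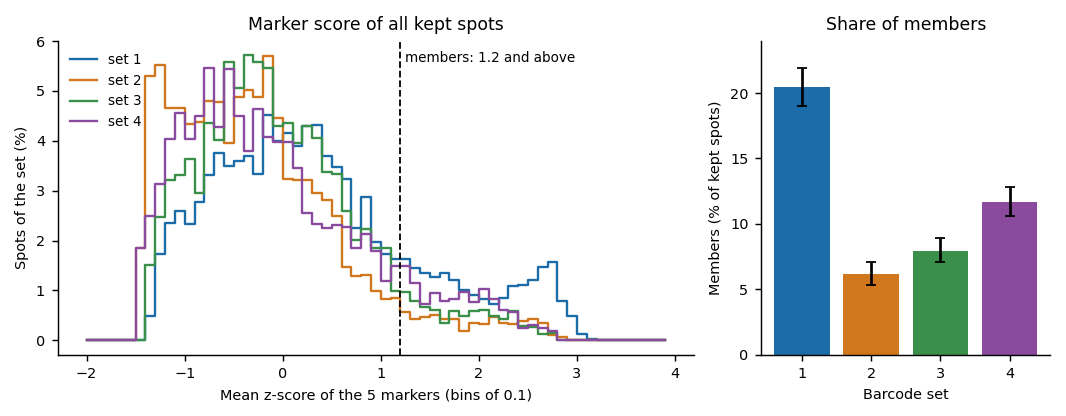
Left, the distribution of the marker score (mean z-score, no unit) over all spots of each barcode set, as the percent of that set's spots in bins 0.1 wide. The dashed line marks 1.2, from which spots were members. Right, the percent of spots that were members with exact 95% intervals; set 1 was at 20.5% and the other sets lay between 6.16% and 11.7%.

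The score had no gap at the threshold. There were 157 spots from 1.1 to just under 1.2 and 148 from 1.2 to just under 1.3. Mal stood at 1489 counts per 1000000 counts of the pooled spots (CPM) just outside and 1611 CPM just inside. Mog stood at 591 and 673 CPM, and Mobp at 3870 and 4375 CPM. These genes make up the score, so their levels on both sides of the threshold are close by construction.

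Members held fewer counts than other spots. The median member had 35929, 21515, 23595.5 and 17423 counts in sets 1 to 4, against 57899.5, 39184, 47190.5 and 27808.5 in other spots. On the log2 scale the mean counts per spot were lower in members by 0.68, 0.86, 1.04 and 0.66. Levels in CPM are relative to this smaller total. In spots, fewer cells of a type and less RNA per cell cannot be told apart. A total of 1192 different barcodes marked the members, and pairs of sets shared 9 to 105 of them. A barcode marks a grid position in this assay, and positions recur between capture areas.

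The 5 marker genes themselves were far above the level of other spots, as the rule required. Mal, a proteolipid of compact myelin, stood at 4225, 2287, 4155 and 2189 CPM in the members of sets 1 to 4 and at 460, 189, 443 and 249 CPM in other spots. Mag, the myelin-associated glycoprotein that faces the axon, stood at 2315, 2409, 1638 and 2229 CPM in members. Mobp, an abundant cytoplasmic myelin protein, was 7.67-fold to 10.7-fold above other spots over the sets. Opalin and Mog, membrane proteins of the oligodendrocyte, were 8.35-fold to 11.6-fold and 8.44-fold to 10.8-fold above.

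Genes outside the 5 markers were compared as the log2 ratio of CPM + 1 in members over other spots of the same set, which understates the ratio of low genes. A gene is called higher or lower here where it was at least 2-fold apart in the same direction in all 4 sets, among the 10286 genes whose mean level reached 10 CPM. There were 471 genes called higher, or 4.58%, and 274 called lower, or 2.66%. The median gene lay between -0.11 and -0.05 in the 4 sets. Of the called genes, 63.2% were higher, against 47.2% with TMM scaling. The count of lower genes was the less stable one, at 145 without set 1, 90 with z-scores within sets and 555 with a threshold of 1.5.

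Genes of compact myelin and its cytoskeleton were mostly called higher, with 18 of 21 called against 4.58% of all genes. That share of all genes stands beside each count of higher genes below as well. Their median log2 ratio was 2.46, 2.94, 2.42 and 2.50 in sets 1 to 4. Mbp, the protein that compacts the inner membrane faces, stood at 27313, 36056, 20581 and 31080 CPM in members against 3705, 3626, 2886 and 4348 CPM. Myelin genes are tied to the marker score, so this gap says nothing beyond the rule. Cldn11, the claudin of myelin tight junctions, stood at 2214, 2664, 1606 and 2273 CPM against 259, 232, 188 and 279 CPM. The 3 genes of this list that were not called were Tppp, Sept7 and Sept8, whose log2 ratios ran from 0.36 to 0.97 and were above 0 in every set. Tppp supports microtubules, and septins support membrane scaffolds.

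Enzymes of myelin lipids were partly called. The list had 9 of 16 genes called higher, with a median log2 ratio between 1.38 and 1.69. Ugt8a, which makes galactocerebroside, stood at 838, 603, 739 and 603 CPM in members and 105, 62.5, 89.1 and 77.7 CPM in other spots. Fa2h, the fatty acid 2-hydroxylase, had log2 ratios of 3.06, 3.45, 2.99 and 3.01, and Gal3st1, which adds the sulfate of sulfatide, of 2.45, 2.84, 2.52 and 2.27. Fdft1, an enzyme of cholesterol synthesis, had log2 ratios of 0.51, 0.56, 0.38 and 0.12. Hmgcs1, at 1.27, 1.11, 0.87 and 0.71, was past 2-fold in only 2 sets.

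Junction, adhesion and receptor genes of oligodendrocytes had 16 of 18 members called higher, with medians from 2.57 to 3.11. They included the connexins Gjc3 and Gjb1, which couple oligodendrocytes to astrocytes and link myelin layers, and Gpr37, Lpar1, S1pr5 and Erbb3, which are receptors. Gjb1 stood at 174, 95.2, 123 and 109 CPM in members and 23.7, 9.62, 17.8 and 15.1 CPM in other spots. Hapln2, a link protein of the matrix at nodes of Ranvier, stood at 244, 388, 316 and 408 CPM against 33.3, 41.8, 41.7 and 52.2 CPM. The 2 genes not called were Omg, with 0.33 to 0.57 over the sets, and Sema4d, with 0.58 to 1.03.

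All 10 oligodendrocyte transcription factors of the list were called higher, with medians from 2.11 to 2.48. Myrf, the factor that drives myelin genes after the cell leaves the cycle, had log2 ratios of 2.82, 3.22, 2.84 and 2.74. Sox10, which acts through the whole lineage, had 2.59, 3.01, 2.61 and 2.54. Olig1 and Olig2, also present in precursors, had 2.16, 2.43, 2.13 and 1.92 and 2.24, 2.45, 2.31 and 2.09.

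Precursors divide and later turn into myelinating cells. Of 13 genes of precursors and early oligodendrocytes that passed the filter, 7 were called higher, with medians from 1.11 to 1.19, and 3 were called with 10 CPM added in place of 1. Pdgfra, the growth factor receptor that marks precursors, stood at 73.6, 53.4, 66.6 and 44.3 CPM in members and 36.7, 25.6, 36.0 and 27.8 CPM in other spots, short of 2-fold in 3 sets. Cspg4, the proteoglycan NG2, had log2 ratios of 0.97, 1.11, 1.07 and 0.98. Gpr17, which marks cells committed to differentiate, had 2.14, 2.34, 1.97 and 1.95. Enpp6, a choline phosphodiesterase of newly forming oligodendrocytes, stood at 162, 89.5, 115 and 96.2 CPM in members and at 19.6, 8.04, 11.8 and 11.1 CPM in other spots.

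Genes of iron handling and of mature oligodendrocyte subtypes were mixed, with 10 of 16 called higher. Trf, the iron carrier transferrin, stood at 1536, 1848, 1908 and 2188 CPM in members and 212, 187, 246 and 274 CPM in other spots. Fth1, the heavy chain of ferritin, had log2 ratios of 1.58, 1.79, 1.64 and 1.84. Ptgds, the prostaglandin D synthase, stood at 863, 1120, 731 and 970 CPM against 233, 362, 268 and 274 CPM. Il33, a cytokine of oligodendrocytes and astrocytes, was past 2-fold in 3 sets, at 0.77, 1.44, 1.35 and 1.99. Jph4 was below other spots in every set, at -0.55, -0.27, -0.36 and -0.39.

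**Figure D2:**
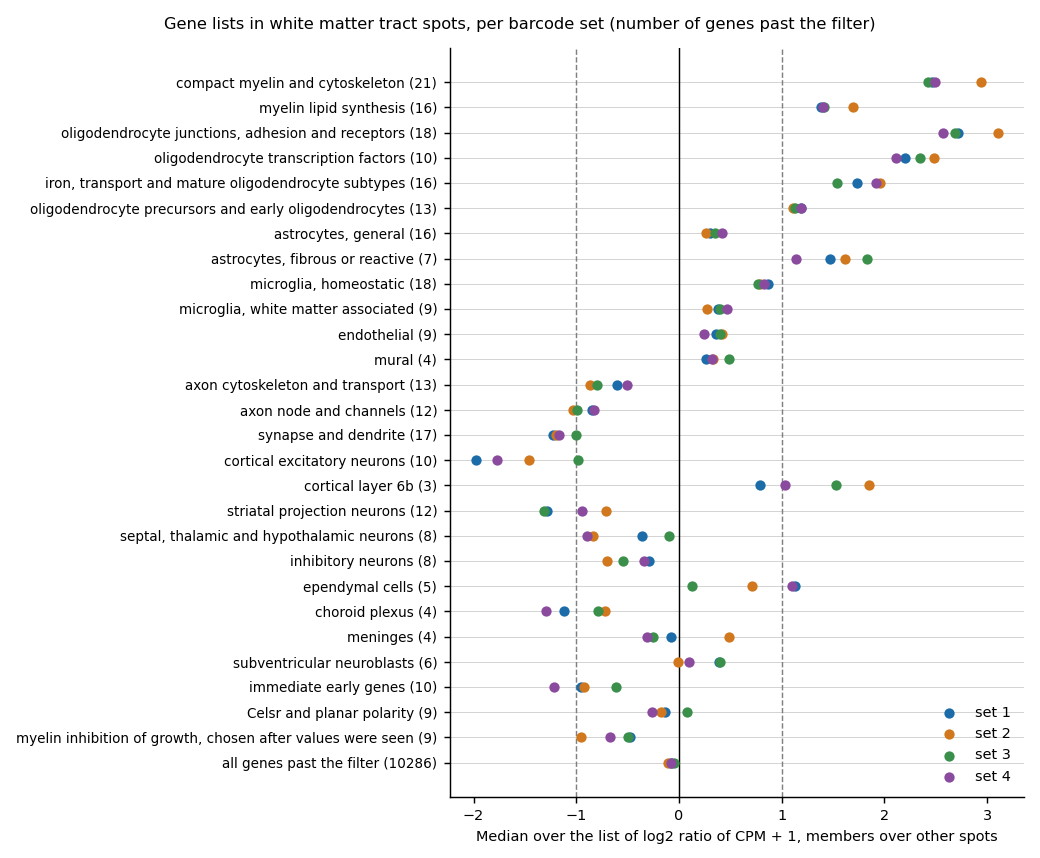
Each row is a gene list with the number of its genes past the filter, and each point is the median log2 ratio of CPM + 1 of members over other spots in 1 barcode set; dashed lines mark 2-fold. Oligodendrocyte lists lay between 1.11 and 3.11, the general astrocyte list between 0.27 and 0.42, and the synapse and dendrite list between -1.23 and -1.01.

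The 12 genes with the highest ratio in their least extreme set included Thbs4, Cldn11, Sec14l5, Fa2h, Enpp6, Ugt8a, Ermn, Tmem63a, Gfap, Tmem88b and Trf. The first was not a myelin gene. Thbs4, a secreted glycoprotein of the matrix, stood at 43.4, 66.7, 115 and 48.4 CPM in members and at 2.74, 2.35, 5.01 and 2.66 CPM in other spots, for log2 ratios of 3.57, 4.34, 4.27 and 3.75. These pooled levels do not hold for all members. In the clusters of members described below, Thbs4 ran over the sets from 154 to 300 CPM in cluster 1. It ran from 0 to 2.91 CPM in cluster 5 and was at 0 CPM in cluster 8. Gfap stood at 701, 708, 760 and 534 CPM in members and at 73.1, 64.0, 65.7 and 72.8 CPM in other spots. Both genes were picked for their high ratios in every set, so the gap between members and other spots follows from that choice.

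Of these 12 genes, 9 had a promoter in the RefSeq table used here (build GRCm38.p6), and the 250 bases before the first start listed were searched for ACAAAG and ACAATG, the core letters bound by SOX factors such as Sox10, on both strands. Either motif was present in 4 of the 9. 3 of these 4 are shown because they hold a match, which is in capitals, and the other was Tmem88b. They are written 5′ to 3′ on the strand of the gene.
Ermn: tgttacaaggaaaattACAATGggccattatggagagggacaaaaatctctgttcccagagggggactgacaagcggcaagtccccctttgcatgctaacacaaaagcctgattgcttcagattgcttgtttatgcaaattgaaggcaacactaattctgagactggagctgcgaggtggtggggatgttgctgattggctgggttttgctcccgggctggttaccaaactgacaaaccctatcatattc
Enpp6: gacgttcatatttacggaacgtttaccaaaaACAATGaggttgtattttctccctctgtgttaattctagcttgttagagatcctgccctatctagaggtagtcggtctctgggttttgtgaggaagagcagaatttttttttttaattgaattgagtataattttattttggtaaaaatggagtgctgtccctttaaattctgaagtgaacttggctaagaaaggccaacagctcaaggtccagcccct
Tmem63a: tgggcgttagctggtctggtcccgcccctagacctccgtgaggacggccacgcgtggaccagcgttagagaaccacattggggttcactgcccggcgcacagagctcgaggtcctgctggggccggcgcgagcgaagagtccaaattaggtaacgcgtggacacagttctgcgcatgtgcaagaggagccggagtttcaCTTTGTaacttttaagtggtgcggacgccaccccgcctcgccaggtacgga
The sequence of Ermn, which encodes a cytoskeletal protein of oligodendrocyte processes, lies at chr2:58052865-58053114 on the minus strand. That of Enpp6 lies at chr8:46986637-46986886 on the plus strand. The sequence of Tmem63a, which encodes a mechanosensitive ion channel, lies at chr1:180942268-180942517 on the plus strand and holds ACAAAG on the other strand, where the printed strand reads CTTTGT. The matches begin 234, 219 and 51 bases before the start. Among the genes called higher that had a promoter in the table, 68 of 368 held a match, or 18.5%. It was 13.9% of the 208 called lower. The share was 16.0% of 8157 genes past the filter and 25.5% of all 27025 promoters.

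The 2 lists of astrocyte genes differed in their medians. Of 16 general astrocyte genes 1 was called higher, Aqp4, the water channel of astrocyte end feet. Over all genes 4.58% were called higher, so this count says little. The medians of the list were 0.27 to 0.42. Aqp4 stood at 243, 158, 144 and 151 CPM in members against 79.6, 54.9, 50.6 and 63.0 CPM. Slc1a2, the main glutamate transporter, had log2 ratios of -0.24, -0.06, 0.17 and -0.24. Of 7 genes of fibrous or reactive astrocytes, 4 were called higher, against 4.58% of all genes: Gfap, C4b, Id3 and Vim. The medians of this list were 1.14 to 1.83. C4b, a complement component, stood at 56.3, 56.5, 120 and 45.8 CPM in members and 10.2, 7.87, 15.2 and 7.42 CPM in other spots. Vim, an intermediate filament, had log2 ratios of 1.42, 1.28, 1.72 and 1.14 and was past 2-fold in fewer than all sets under 5 other settings on the CPM scale, among them TMM scaling and leaving out set 1. Without set 4, 6 genes of this list were called. Serpina3n, a marker of reactive astrocytes, had 0.57, 0.61, 0.36 and 0.64.

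On the CPM scale, microglial genes were raised by less than 2-fold as a group. Of 18 homeostatic genes 2 were called higher, Sall1 and Ctss, against 4.58% of all genes, and the medians were 0.77 to 0.87. Sall1, a transcription factor of microglia, stood at 56.5, 42.6, 44.9 and 37.5 CPM in members and 17.3, 12.6, 14.9 and 11.3 CPM in other spots. Ctss, a lysosomal protease, was not called under 8 other settings on the CPM scale; without set 2 and without set 4 only 1 gene of the list was called. Cx3cr1 had log2 ratios of 0.74, 0.74, 0.65 and 0.75 and Csf1r of 0.87, 0.91, 0.77 and 0.90. Of the genes known from white matter associated microglia, 1 of 9 past the filter, Cd63, was called, and Cst7, Gpnmb, Itgax and Lgals3 did not pass the filter. Lpl, a lipase of that state that neurons also make, had log2 ratios from -1.45 to -0.97. On the scale of counts per spot rather than CPM, the median over sets of the list medians was below 0 for the general astrocyte, the white matter associated microglial, the endothelial and the mural list. The homeostatic microglial list ran from -0.25 to 0.22 over the sets on that scale, so its direction was not the same in every set. Of the vascular lists, 0 of 9 endothelial and 0 of 4 mural genes were called on the CPM scale. Over all genes 4.58% were called higher and 2.66% lower, so 0 calls in lists this short say little.

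Lists of neuronal genes lay on both sides of other spots. Of 17 synapse and dendrite genes 7 were called lower, against 2.66% of all genes, with medians of -1.23 to -1.01; the count was 4 without set 1 and 13 without set 3. Camk2a, the kinase of excitatory synapses, stood at 284, 551, 451 and 386 CPM in members and 1035, 1526, 1197 and 1486 CPM in other spots. Nrgn, a calmodulin-binding protein of dendritic spines, had log2 ratios of -2.52, -1.85, -2.05 and -2.49. Of 10 cortical excitatory neuron genes 3 were called lower, Slc17a7, Lamp5 and Sv2b, and 6 without set 1 and 7 without set 3. Of 12 striatal projection neuron genes 0 were called, with medians from -1.32 to -0.71; without set 2, 7 were called lower. Genes of cortical layer 6b, which borders the white matter, lay above other spots instead, with medians of 0.79, 1.85, 1.53 and 1.03. Of these genes 0 of 3 were called, against 4.58% of all genes called higher, and 2 were called higher without set 1. Slc17a7, the vesicular glutamate transporter of cortical neurons, still stood at 303, 464, 570 and 328 CPM in members, so the pooled members were not free of its transcripts. These pooled levels do not hold for all members. In cluster 2, described below, with 14.4% of members, Slc17a7 was 15.9-fold above the remaining members with 10 CPM added. Ccn2, which marks layer 6b, was 20.3-fold above them there.

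Axonal genes were on both sides of other spots. Of 13 genes of the axon cytoskeleton and transport 0 were called in either direction (10286 genes; 4.58% higher and 2.66% lower). Kif5a, a kinesin motor of axonal transport, stood at 684, 811, 811 and 984 CPM in members and 398, 370, 370 and 451 CPM in other spots. Its log2 ratios were 0.78, 1.13, 1.13 and 1.12, past 2-fold in all but set 1, and it was called higher without set 1. Mapt, the axonal microtubule protein tau, had 0.35, 0.45, 0.59 and 0.30. The neurofilament genes were at or below other spots: Nefl at -0.60, -0.98, -1.32 and -0.57, Nefm at -0.92, -1.34, -1.93 and -0.94, and Nefh at 0.04, -0.87, -0.95 and -0.02. Of 12 genes of nodes and axonal channels only Scn2a was called lower, at -1.28, -1.11, -1.01 and -1.16, and 0 were called without set 1 and 5 without set 4. Kcna1, a potassium channel subunit beside the nodes, had 0.54, 0.70, 0.46 and 0.64.

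The 12 genes with the lowest ratios were Igfn1, Slc30a3, Rtn4rl2, Rtn4r, Robo3, Krt12, Nrn1, Tmem215, Nptxr, Tafa1, Kcnv1 and Dkkl1. They held 2 members of the Nogo receptor family, which receive myelin-derived signals that limit axon growth. A list of 10 ligands and receptors of this system was drawn up after their values were seen. Of its 9 genes past the filter, 4 were called lower, all of them receptors or co-receptors, against 2.66% of all genes. Since low values prompted the list, this count supports nothing about the system. Rtn4r, the Nogo receptor, stood at 14.4, 8.37, 18.5 and 16.6 CPM in members and at 91.2, 82.5, 93.3 and 92.9 CPM in other spots. Rtn4rl2 stood at 6.08, 10.2, 7.52 and 5.42 CPM against 62.2, 106, 56.4 and 87.1 CPM, and Lingo1, a co-receptor, at 61.2, 88.9, 71.9 and 72.7 CPM against 281, 318, 233 and 330 CPM. Of the ligands, Mag was a marker gene and stood 7.66-fold to 10.6-fold above other spots. Rtn4, which encodes Nogo, had log2 ratios of 0.18, 0.19, 0.01 and 0.16, and Omg had 0.44, 0.57, 0.33 and 0.52.

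Celsr3 was measured in members at 17.7, 26.4, 17.1 and 27.3 CPM and in other spots at 34.0, 47.5, 26.4 and 48.8 CPM. The log2 ratios were -0.90, -0.82, -0.59 and -0.82, so it was lower in the myelin-rich spots of every set but by less than 2-fold. Celsr2 had -0.81, -0.79, -0.65 and -0.65. Of the 9 genes of the Celsr and planar polarity list past the filter 0 were called, and the medians were -0.26 to 0.08. Over all genes 4.58% were called higher and 2.66% lower, so 0 of 9 says little. These levels cannot be tied to the genotype of a mouse.

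Cell types of other compartments were looked for in the members. Ttr, the most abundant choroid plexus gene, stood at 3405, 6.80, 3788 and 56.5 CPM in members and at 7919, 12.2, 6235 and 634 CPM in other spots, and 0 of 4 choroid plexus genes past the filter were called. Summed over the list, choroid plexus genes ranged from 55.5 to 3923 CPM in the members of the 4 sets and from 91.8 to 8158 CPM in other spots. Ependymal genes had 0 of 5 called, and their sums were 101 to 241 CPM in members and 60.2 to 116 CPM in other spots. Genes of meninges had 0 of 4 called and genes of subventricular neuroblasts 0 of 6. With 4.58% of all genes called higher and 2.66% lower, 0 calls in such short lists say little. Igfbpl1, of the neuroblast list, was higher in 3 sets at 2.07, 0.36, 1.82 and 1.62. The part of these cells in the other results was not tested.

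Levels were then followed over 5 ranges of the marker score: below 0, 0 to 0.6, 0.6 to 1.2, 1.2 to 1.8 and above 1.8. The median of the compact myelin list increased from range to range in every set, which the rule fixes. Other genes took different courses. Thbs4 was at 2.60, 2.35, 4.06, 15.2 and 66.6 CPM in set 1 and at 4.35, 4.87, 11, 55.8 and 186 CPM in set 3, so most of its increase lay among the members. Gfap was at 56.6, 71.6, 144, 325 and 1010 CPM in set 1 and at 56.3, 80.2, 174, 349 and 763 CPM in set 4. Slc1a2 stayed between 1389 and 1674 CPM over the ranges of set 1 and between 1566 and 1800 CPM in set 3. Csf1r, the receptor that microglia depend on, went from 47.2 to 103 CPM in set 1 and from 62.2 to 128 CPM in set 2 between the lowest and the highest range.

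Other genes were not highest in the top range in every set. Ccn2, a secreted matricellular protein that marks cortical layer 6b, which borders the white matter below the cortex, was at 13.3, 34.6, 81.1, 87.3 and 31.5 CPM in set 1. In set 2 it was at 36.7, 52.7, 166, 248 and 89.2 CPM, and in all 4 sets the range from 1.2 to 1.8 was the highest. Nefh was at 73.7, 86.1, 104, 133 and 44.2 CPM in set 1 and at 103, 135, 174, 159 and 59.8 CPM in set 4, with a peak in the middle ranges. In set 2 it was at 58.4, 99.8, 80.3, 55.6 and 14.8 CPM. In set 3 it went from 79.8 CPM in the lowest range to 21.0 CPM in the highest. Klk6, a secreted protease of oligodendrocytes, stood in sets 1 to 3 at 58.2, 47.1 and 15 CPM above 1.8 after 57.7, 70.1 and 30.1 CPM from 1.2 to 1.8. In set 4 it went from 87.7 to 194 CPM.

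**Figure D3:**
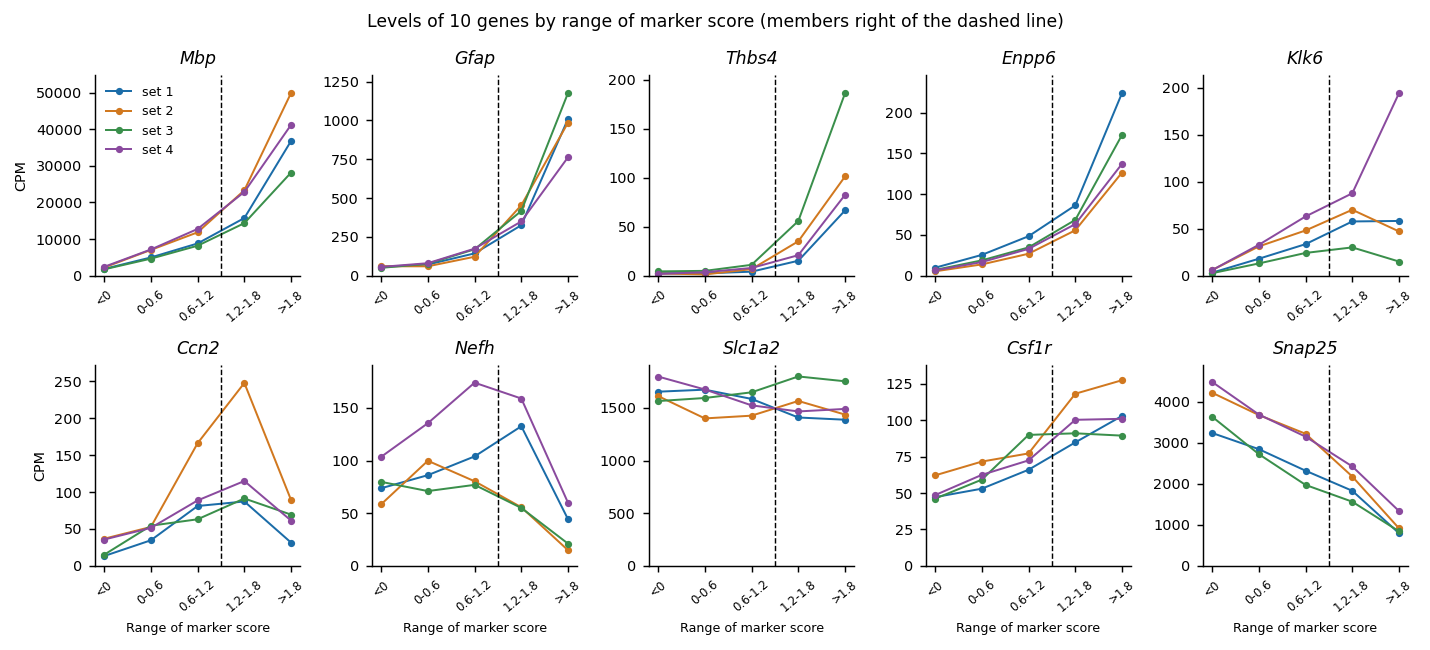
CPM of 10 genes over 5 ranges of the marker score, 1 line for each barcode set, with members to the right of the dashed line and each vertical axis starting at 0. Thbs4, Gfap and Enpp6 climbed most in the highest range, Ccn2 was highest from 1.2 to 1.8 in all 4 sets, and Klk6 reached 194 CPM in set 4 against 58.2 CPM or less in the other sets above 1.8.

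Members were also compared between the sets, over the 10319 genes whose mean level there reached 10 CPM. Each set is 1 library of unknown mouse, so these counts describe libraries. Genes at least 2-fold apart numbered 766 between sets 1 and 2, or 7.42%, and 90 between sets 1 and 3, or 0.872%. They numbered 700 between sets 1 and 4 (6.78%) and 584 between sets 2 and 3 (5.66%). Sets 2 and 4 were 148 genes apart (1.43%) and sets 3 and 4 were 669 genes apart (6.48%). The fewest differences thus lay between sets 1 and 3 and between sets 2 and 4.

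Oligodendrocyte genes also differed in level between the members of the sets, and in opposite directions, though not by 2-fold in every pair of sets. Tspan2, a tetraspanin of myelin, stood at 1897, 1087, 1667 and 911 CPM and Anln, which encodes a septin-binding protein, at 180, 67.5, 153 and 74.9 CPM, both higher in sets 1 and 3. Bcas1 stood at 399, 827, 273 and 830 CPM and Sox10 at 139, 307, 142 and 304 CPM, both higher in sets 2 and 4. In other spots, Tspan2 was likewise higher in sets 1 and 3 and Sox10 in sets 2 and 4, as was Bcas1. Tspan2 was at 254, 116, 217 and 138 CPM there, Bcas1 at 75.8, 96.8, 53.5 and 151 CPM, and Sox10 at 22.3, 37.2, 22.5 and 51.4 CPM. The log2 ratios of members to other spots were 2.89, 3.22, 2.93 and 2.71 for Tspan2 and 2.38, 3.08, 2.33 and 2.45 for Bcas1.

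The 10 genes with the widest range over the members of the 4 sets were Ttr, Gm10260, Avp, Amd1, Oxt, Myoc, Olfr305, Txlna, Hbb-bs and H2-D1. None was a myelin gene. Gm10260 stood at 2.98, 184, 172 and 322 CPM in members and at 2.75, 147, 133 and 286 CPM in other spots, so the difference between libraries was not particular to members. Myoc, which encodes myocilin, was 1 of the 7 fibrous astrocyte genes. It stood at 11, 120, 26.9 and 3.0 CPM in members and at 3.17, 9.11, 2.01 and 3.21 CPM in other spots. Its log2 ratios were 1.53, 3.59, 3.21 and -0.08, so members were above other spots in sets 1 to 3 and not in set 4. Klk6 stood at 58.0, 59.1, 23.3 and 135 CPM in members and Il33 at 51.8, 64.4, 81.5 and 153 CPM, both highest in set 4.

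**Figure D4:**
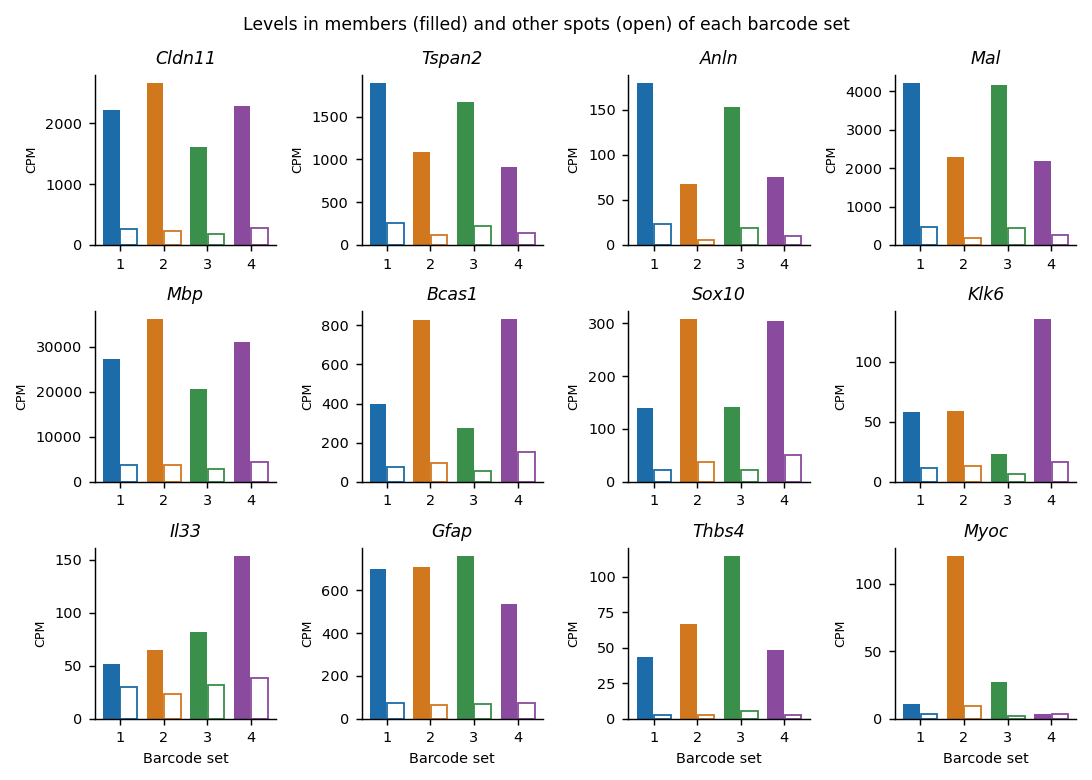
CPM of 12 genes in members (filled bars) and other spots (open bars) of each barcode set, with axes that start at 0 and differ between genes. Tspan2, Anln and Mal were highest in set 1, Mbp, Bcas1 and Sox10 were higher in sets 2 and 4 than in sets 1 and 3, and Myoc stood at 120 CPM in the members of set 2 against 3.0 CPM in set 4.

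To see how members varied among themselves, they were grouped by genes that took no part in the rule. The 5 markers and 13 lists of glial, vascular and immediate early genes, 190 genes in all, were kept out, values were centred within sets, and Leiden clustering gave 12 clusters of 29 to 238 spots. Clusters are named by number and leading genes, taken by their ratio to the remaining members after 10 CPM were added. They carry no cell type name, and their leading genes are not results. Cluster 1 was led by Hist1h3b, Hist1h3c and Thbs4, cluster 2 by Ccn2 and Slc17a7, and cluster 4 by Ppp1r1b and Pde10a. Cluster 5 was led by Spp1 and Syt2, cluster 6 by Ctxn3 and Sln, cluster 8 by Tac2 and Ngfr, and cluster 11 by Ccdc153 and Tmem212. The median marker score ran from 1.39 in cluster 4 to 2.71 in cluster 6. Grouping was sensitive to its settings: the adjusted Rand index to these clusters was 0.694 at a resolution of 0.3, 0.713 at 0.8 and 0.492 without centring.

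The lists that were kept out differed between clusters, given here as the log2 ratio to the other members of the same set, over sets with at least 10 spots in the cluster. Compact myelin genes were highest in cluster 1, with medians from 0.61 to 0.84 over 4 sets, and in cluster 6, with 0.71 to 0.87 over 2 sets. They were at -0.84 to -0.57 in cluster 4 and -0.74 to -0.47 in cluster 5. The marker score of these clusters ran the same way, and myelin genes are tied to it.

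Astrocyte genes did not follow the score in 1 direction. Genes of fibrous astrocytes were highest in cluster 1, at 0.84 to 1.83, and in cluster 11, at 1.07 to 1.12 with a median score of 1.97. Gfap ranged from 1193 to 1654 CPM in cluster 1 and from 176 to 382 CPM in cluster 4. Vim reached 343 to 431 CPM in cluster 11, whose leading genes Ccdc153 and Tmem212 are on the ependymal list, against 6.14 to 38.6 CPM in cluster 5. General astrocyte genes were highest in cluster 5 instead, at 0.52 to 0.83 over 3 sets, where the fibrous list was at -1.12 to -0.65.

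Microglial genes were also highest in cluster 5. The homeostatic list was at 0.64 to 0.88 there and at 0.21 to 0.56 in cluster 8, against -0.39 to -0.09 in cluster 4. Clusters 4 and 5 had close median scores, 1.39 and 1.51. Csf1r stood at 136 to 186 CPM in cluster 5 and 68.7 to 107 CPM in cluster 4. Ctss stood at 233 to 314 CPM in cluster 5 and 89.6 to 135 CPM in cluster 4. These ranges cover 4 sets in cluster 4 and 3 sets in cluster 5, which had 0 spots in set 2 and 12 in set 3.

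Oligodendrocyte genes outside the core list varied in their own ways. Klk6 was above other members in every set of cluster 2, at 0.02 to 0.70, and cluster 7, at 0.50 to 0.58, while in cluster 11 it was at -1.73 to -1.43. Il33 was above other members in cluster 5, at 0.25 to 1.48, and below them in cluster 2, at -1.89 to -0.55. S100b, shared by oligodendrocytes and astrocytes, was at 0.10 to 0.54 in cluster 5 and 0.30 to 0.41 in cluster 7. Pdgfra was at 0.12 to 0.76 in cluster 1 and at -1.35 to -0.09 in cluster 4.

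Immediate early genes, which neurons switch on with activity, were at 0.66 to 1.82 in cluster 4 and 0.34 to 1.42 in cluster 2. In cluster 5 they were at -1.68 to -0.63. In cluster 9 the sets ran from -1.15 to 0.57.

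**Figure D5:**
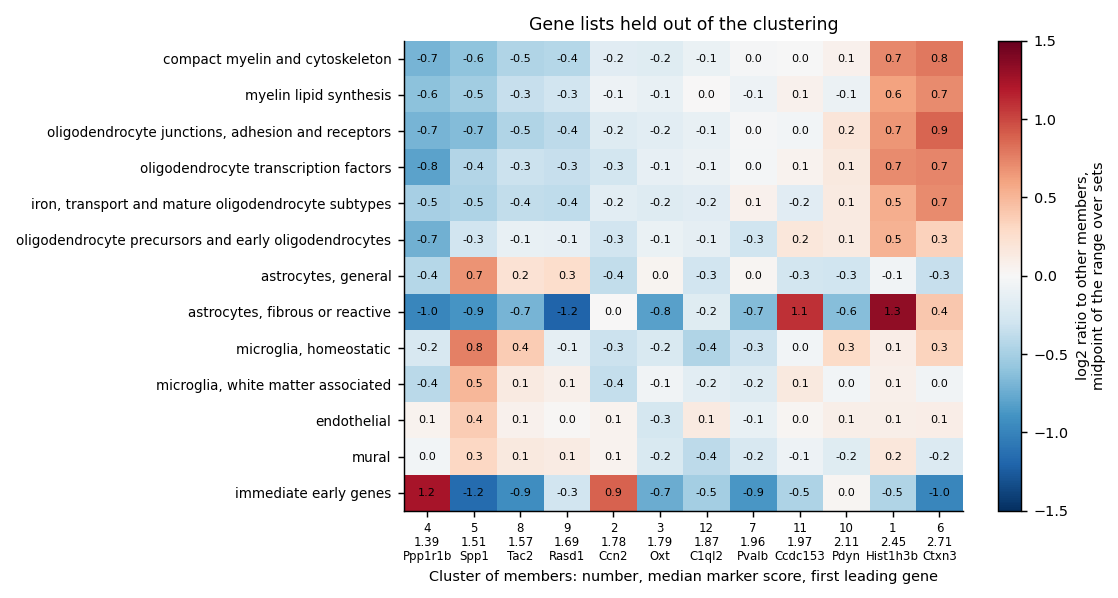
Rows are the 13 gene lists kept out of the clustering and columns the 12 clusters of members in order of median marker score, with the first leading gene under each; each cell is the log2 ratio to the other members, as the midpoint of the range over sets, and the colour scale is limited to 1.5 in each direction. Compact myelin genes were highest in clusters 1 and 6, fibrous astrocyte genes were highest in clusters 1 and 11, and general astrocyte and homeostatic microglial genes in cluster 5.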

How the data were processed

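Spatial counts came from 4 coronal brain sections. The authors deposited the counts as a single gene by spot matrix of whole numbers, not normalized, with 19465 genes and 12602 spots. The submitters' processing notes name Space Ranger and Seurat, with no version or role; the genome build and the probe set are not given in the sources used here. Probes read part of each transcript, so levels were not compared between genes. Spot names end in 1 of 4 numbers that match no label, so no test across genotypes was run and no p-value is given.

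One spot under 500 counts was left out. Members were found by the marker score, counts were summed over members and other spots per set, and CPM and log2 ratios with 1 CPM added were computed from the sums (Python 3.11.15, numpy 2.4.6, pandas 2.3.3, scipy 1.17.1). The members had 24188999, 3822816, 6652554 and 7005555 counts in sets 1 to 4. Counting error depended on the level. The widest exact Poisson half-width was 36.7% of the level for named genes of at least 10 CPM in members and 10.5% for those of at least 100 CPM. Named genes under 10 CPM were less exact: Igfn1 in the members of set 2 was at 1.57 CPM (0.58 to 3.42) from 6 counts. A simulation with counting error only drew members and other spots of each set from the same profile, that of the other spots. Of 200 genes given a 4-fold change among 10071, it recovered 93.5% at the 2-fold cut, with 0 false calls. It held no variation between spots and no choice of spots by expression, so it cannot speak to calls affected by either.

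The members and the 26 gene lists (322 genes, 317 found) were chosen with earlier results of these data known. Named genes were list genes, the 12 with the highest and the 12 with the lowest ratio in their least extreme set, the 10 with the widest range over sets at a mean of at least 20 CPM in members, and the 5 leading genes of each cluster. Clusters used 2000 variable genes, 20 principal components, 15 neighbours and Leiden at a resolution of 0.5 (scanpy 1.11.5, leidenalg 0.10.2). Scaling factors by TMM and RLE were computed by edgeR 4.0.16 (R 4.3.3). Other alternatives were other thresholds, minimums of counts, thinning, weighting and each marker or set left out. The scale of counts per spot was chosen after seeing the data. Not analysed here were Xist and Tsix. Some list genes are not reported here.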

Additional observations from a re-analysis of the deposited data

How the results depend on the processing

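No paired analysis was possible because the sets carry no replicate number or genotype and no test was run. For sets 1 to 4, the share of members was 23.8%, 7.83%, 10.8% and 14.3% with a threshold of 1.0 and 16.0%, 4.70%, 5.55% and 8.29% with 1.5. With z-scores within sets it was 13.7%, 9.94%, 10.5% and 12.8%. With spots thinned to 5000 counts it was 18.3%, 6.97% and 10.5% in sets 1, 3 and 4. Leaving out 1 of the other sets gave set 1 a share of 18.9% to 20.2% and set 2 of 5.91% to 7.76%. It gave set 3 a share of 7.08% to 10.6% and set 4 of 10.3% to 14.2%. Leaving out any 1 marker, or setting the minimum to 1 or 2000 counts, kept each share inside its interval.

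The count of higher genes was 471 and ranged from 429 to 533 with 1 set left out; it was 165 on the scale of counts per spot. The count of lower genes was 419 with TMM scaling, 148 with 10 CPM added, 136 and 555 with thresholds of 1.0 and 1.5, 90 with z-scores within sets, 145 to 395 with 1 set left out, and 2474 on the scale of counts per spot. On that scale the list medians turned to -0.48 for general astrocytes, -0.44 for white matter associated microglia, -0.41 for endothelial and -0.46 for mural genes, since members held fewer counts per spot. The list medians of homeostatic microglia ran from -0.25 to 0.22 over the sets. Between the members of sets 1 and 4, 1081 genes were apart with TMM scaling. With no filter the pairs 1 and 2, 1 and 3, 1 and 4, 2 and 3, 2 and 4, and 3 and 4 were 1790, 258, 3004, 1415, 791 and 2362 genes apart. Clusters had adjusted Rand indices of 0.694, 0.713 and 0.492 at resolutions of 0.3 and 0.8 and without centring. The causes were not tested.

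With 1 library per set, no value here has an error between mice, and low genes such as Zfp488 rest on few counts.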
